A study of Mus musculus with 22 samples.

Results

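The cells described here carried transcripts of *Foxc1* and *Twist1* and few or none of *Cdh5*, an endothelial gene, and of *Tagln* and *Acta2*, genes of smooth muscle. A cell was included when its total count was 50 or more, its *Foxc1* count was 3 or more and at least 6 per 1000 of its counts, its *Twist1* count was 1 or more, its *Cdh5* count was under 2 and its summed *Tagln* and *Acta2* count was under 4. These limits took in 817 of 37575 segmented cells, or 817 of the 30353 cells with a total of 50 or more. They are called Foxc1+ cells below, and 562 of them came from knockout and 255 from wildtype sections.

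The study asked how the nuclear receptors NR4A1 and NR4A2 act when blood stem cells arise in the aorta of the mouse embryo. Single RNA molecules of 998 genes were counted by CosMx spatial imaging in 22 sections of E10 embryos, each 10 µm thick. By the methods fields of view were placed over whole embryos, and the files hold the cells of 1 to 5 of them per section. By the labels, 13 sections came from 1 knockout embryo and 9 from 1 wildtype embryo. The alleles, which the labels do not name, are by the methods *Nr4a1*-/-*Nr4a2*-/- and *Nr4a1*+/+*Nr4a2*+/+. The null alleles were inherited and were not limited to a cell type by a Cre, the strains had been backcrossed to C57BL/6J, and no treatment is named for either embryo. Sections of 1 embryo are repeated measurements of it, so each test between the genotypes compares 2 embryos. The sections also carry a number, 1 or 2, that may stand for the slide, and by the methods a slide held sections of 1 genotype, so slide and embryo cannot be told apart. Totals of 169038 to 887904 transcripts were counted per section, with medians of 87 to 332 per cell, the lowest in section 3. No cell name was shared by sections of the same embryo and number, and no cells of equal name had equal counts.

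Sclerotome is the ventral part of the somite. Its cells leave the epithelial somite under the influence of Sonic hedgehog from notochord and floor plate, turn on *Pax1* and *Pax9*, and form the cartilage of vertebrae and ribs. *Foxc1* and its close relative *Foxc2* are forkhead factors of the paraxial mesoderm that are needed together for somites to form, *Sox9* drives the change to cartilage, and *Twist1* is a basic helix-loop-helix factor of mesenchyme. None of these genes is restricted to sclerotome, since *Foxc1* and *Twist1* are also known in head, limb and kidney mesenchyme.

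The limits fix the level of 5 genes, which are given as a description only. The *Foxc1* count of a Foxc1+ cell had a median of 4.0 and reached 16, and 41.1% of the cells had exactly 3. The *Twist1* count had a median of 3.0, and 25.7% of the cells had a count of 1. Just outside the limits lay 450 cells with a *Foxc1* count of 2 and all other limits met, in which *Sox9* made up 3.85 per 1000 counts. In the 336 cells just inside, with a *Foxc1* count of 3, *Sox9* made up 3.64 per 1000. *Foxc2* made up 1.16 per 1000 just outside and 1.12 per 1000 just inside. Another 186 cells lay outside because a *Foxc1* count of 3 or more was under 6 per 1000 of their counts, and in these cells, with a median total of 693, *Sox9* made up 2.26 and *Foxc2* 0.731 per 1000.

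The number of Foxc1+ cells in a section ranged from 7 to 94. Sections with at least 10 entered the tests, which left 13 knockout and 8 wildtype sections and dropped wildtype section 17. The median total count of a Foxc1+ cell ranged from 292.5 to 514.5 across sections, and that of the other cells from 183.5 to 334.

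The targeted genes were looked at first. In Foxc1+ cells of the knockout sections *Nr4a1* ranged from 0 through a median of 0.173 to 0.314 per 1000 counts, and in wildtype sections from 0 through 0.260 to 0.451. *Nr4a2* ranged from 0.259 through 0.403 to 0.974 per 1000 in knockout and from 0.195 through 0.539 to 0.740 in wildtype sections. The ranges overlapped for both genes. *Nr4a1* stood at rank 986 of 998 genes by level in these cells and *Nr4a2* at rank 693, against a median over all genes of 0.569 per 1000. At such levels, and with probe positions relative to the deleted parts not given in the sources used here, the counts do not check the genotype, which rests on the labels alone. A legend of the study counts more wildtype than knockout sections, whereas the labels hold more knockout than wildtype sections, so every direction between the embryos holds only as far as the labels do. *Nr4a3*, the third member of the family, ranged from 0 to 0.986 per 1000. None of the 3 receptors passed the test against other cells, with log2 fold changes of -0.27, 0.14 and 0.02 for *Nr4a1*, *Nr4a2* and *Nr4a3* (edgeR).

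Foxc1+ cells were first compared with 24478 other cells of the same 21 sections that met the same limits on total count, *Cdh5*, *Tagln* and *Acta2*. The transcription factors *Sox9*, *Foxc2* and *Pax1*, the chemokine *Cxcl12* and the mesenchymal cadherin *Cdh11* were higher in Foxc1+ cells, and alpha globin, metallothioneins and the collagen gene *Col18a1* were lower. Of 993 genes tested 20 (2.01%) were higher and 16 (1.61%) lower at an adjusted p under 0.05 (edgeR with the section as a block), together 3.63%, around a median log2 fold change of -0.00.

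*Cxcl12*, which encodes the ligand of the receptor CXCR4, ranged from 1.95 through a median of 4.03 to 9.10 per 1000 counts in Foxc1+ cells and from 0.844 through 1.60 to 4.60 in other cells. It was higher in Foxc1+ cells in each of the 21 sections, by a log2 fold change of 1.37 (SE 0.08, edgeR adjusted p = 2.21e-37). *Sox9* ranged from 0.740 through 3.61 to 5.50 per 1000 in Foxc1+ cells and from 0.880 through 1.20 to 3.68 in other cells. It was higher in 20 of 21 sections, by a log2 fold change of 1.26 (SE 0.08, edgeR adjusted p = 1.37e-31), and the exception was wildtype section 21, where 3 *Sox9* transcripts were counted in 12 cells. *Foxc2* ranged from 0.245 through 1.03 to 1.73 per 1000 and from 0.348 through 0.495 to 1.09 in other cells. It was higher in 17 of 21 sections, by a log2 fold change of 1.04 (SE 0.12, edgeR adjusted p = 8.63e-13).

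**Figure D1:**
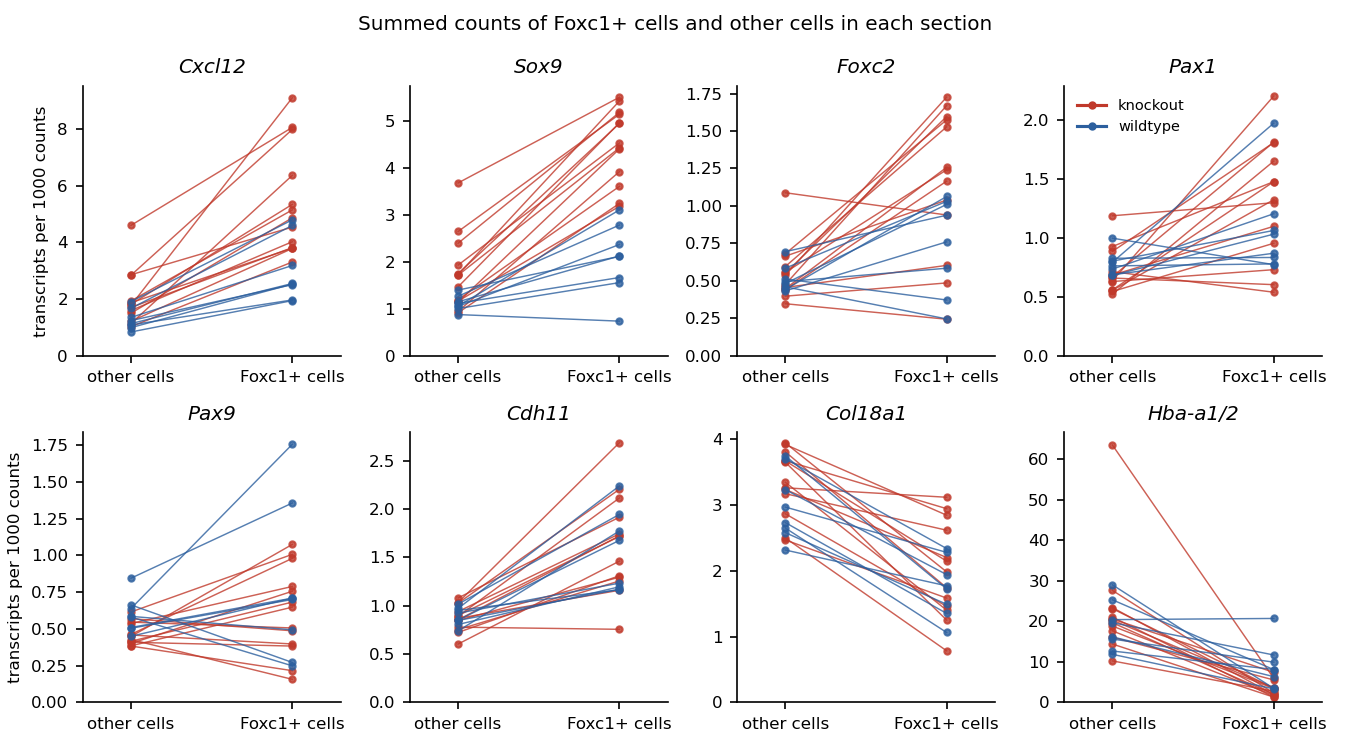
Level of 8 genes in each of 21 sections, as transcripts per 1000 counts, in other cells (left of each panel) and Foxc1+ cells (right), with a line joining the values of 1 section and colour giving the embryo. The lines of *Cxcl12* rise in all 21 sections, those of *Col18a1* fall in all 21, and those of *Pax9* go both ways, up in 12 and down in 9.

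The defining genes of sclerotome did not all follow. *Pax1*, the paired box factor of ventral sclerotome, ranged from 0.540 through 1.10 to 2.20 per 1000 counts in Foxc1+ cells and from 0.523 through 0.687 to 1.19 in other cells. It was higher in 18 of 21 sections, by a log2 fold change of 0.73 (SE 0.12, edgeR adjusted p = 2.59e-07). *Pax9*, its close relative, ranged from 0.157 to 1.75 per 1000 and had a log2 fold change of 0.35 (SE 0.14, edgeR adjusted p = 0.207), higher in 12 of 21 sections. Of the 12 sclerotome and mesenchyme factors tested 3 rose, none fell and 9 did not pass, with a median log2 fold change of 0.14. *Twist2*, *Snai1*, *Snai2* and *Pdgfra*, which are widely used mesenchymal genes, were among genes that did not pass, with log2 fold changes of 0.04, 0.16, -0.27 and 0.15. *Shh* itself had a log2 fold change of -0.41 (edgeR adjusted p = 0.141). Of the 4 sclerotome markers outside the limits 3 were thus higher and *Pax9* was not, and the cells are therefore named by their rule.

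The same factors were counted cell by cell against other cells of equal total count, 1 for each Foxc1+ cell from the same section, so that both sets had a median total of 389. *Sox9* was found in 61.0% ± 15.3 of the Foxc1+ cells of a section (SD, n = 21) and in 28.2% ± 10.4 of the matched cells, and the share was higher in 20 of 21 sections. *Pax1* was found in 32.6% ± 9.2 against 18.8% ± 9.7, higher in 18 sections. *Foxc2* was found in 29.8% ± 11.1 against 15.2% ± 5.5, also higher in 18 sections. *Pax9* was found in 19.1% ± 9.6 against 14.95% ± 8.1 and was higher in 12 sections. Over all Foxc1+ cells 16.2% had none of these 4 factors, 14.6% had 3 and 2.33% had all 4. Of the matched cells 43.3% had none, 2.94% had 3 and 0.245% had all 4.

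Among 21 adhesion genes 2 rose, *Cdh11* and *Itgb1*, and 1 fell, *Alcam*. *Cdh11* ranged from 0.755 through 1.68 to 2.69 per 1000 counts in Foxc1+ cells and from 0.603 through 0.869 to 1.08 in other cells, higher in 20 of 21 sections (log2 fold change 0.83, SE 0.10, edgeR adjusted p = 2.95e-12). *Itgb1*, a chain of many integrins, had a log2 fold change of 0.35 and *Alcam*, a cell adhesion molecule of the immunoglobulin family, one of -0.48. *Epha7*, a receptor of ephrins, rose by a log2 fold change of 0.68 and was the 1 gene of 13 Eph receptors and ephrins to do so. *Fzd1* and *Fzd8*, both receptors of Wnt ligands, rose by 0.59 and 0.43 and were the genes called among 28 of hedgehog and Wnt signalling. Of 37 matrix genes 3 rose and 1, *Col18a1*, fell, and those that rose were *Vcan*, the core protein of the proteoglycan versican, at 0.58, *Col11a1*, a collagen of cartilage fibrils, at 0.47, and *Col3a1*, a collagen of soft connective tissue, at 0.52. *Col3a1* was higher in 14 of 21 sections only. Of 3 basement membrane collagens *Col4a1* rose, by a log2 fold change of 0.24 that turned to -0.28 when the cells past the limits on *Cdh5*, *Tagln* and *Acta2* were added to the other cells. *Mrc2*, an endocytic receptor of collagen, rose by 0.44 and *Maf*, a leucine zipper factor, by 0.53. *Pdgfrb* and *Dusp6*, a receptor of PDGF and a phosphatase induced by FGF signalling, rose by 0.38 and 0.34 and were 2 of 20 genes of those pathways. No gene passed among 26 of BMP and TGF-beta signalling, 13 of Notch signalling or 5 retinoic acid receptors, with median log2 fold changes of -0.03, -0.06 and -0.05.

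Alpha globin, metallothioneins, *Col18a1* and a keratin were among the genes that were lower. *Hba-a1/2*, 1 feature for alpha globin, ranged from 1.29 through 3.49 to 20.7 per 1000 counts in Foxc1+ cells and from 10.2 through 19.7 to 63.5 in other cells, lower in 20 of 21 sections (log2 fold change -2.10, SE 0.26, edgeR adjusted p = 4.88e-06). *Col18a1* ranged from 0.785 through 1.77 to 3.12 per 1000 and from 2.32 through 3.24 to 3.95 in other cells. It was lower in all 21 sections, by a log2 fold change of -0.75 (SE 0.08, edgeR adjusted p = 8.41e-14). The metallothionein genes *Mt2* and *Mt1* fell by 0.83 and 0.71 on the log2 scale. *Igfbp5*, a binding protein of insulin-like growth factors, fell by 0.79, *Csf2rb*, the shared chain of cytokine receptors of blood cells, by 0.77, *Krt8*, a keratin of simple epithelia, by 0.65 and *Ezr*, a linker of actin to the membrane, by 0.53. *Sox2*, a factor of neural progenitors, had a log2 fold change of -0.83, which turned to 0.05 against cells matched on total count.

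**Figure D2:**
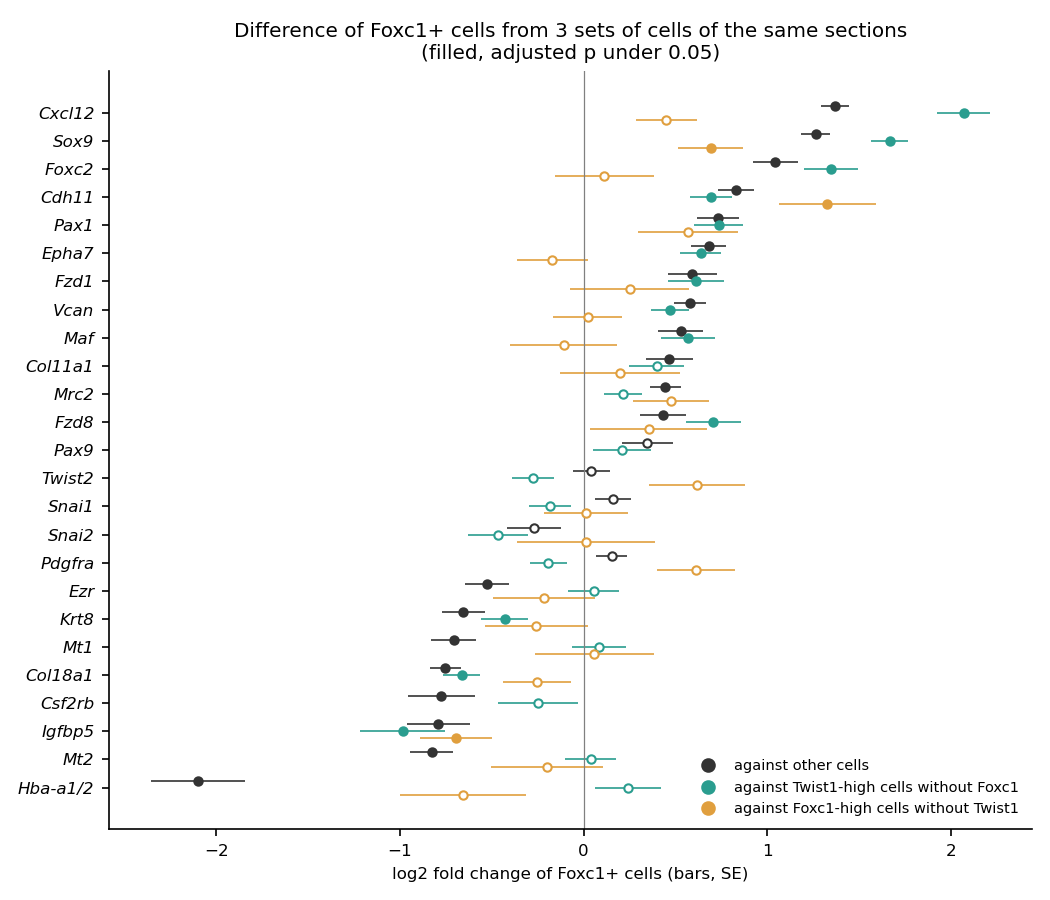
Log2 fold change of Foxc1+ cells against other cells (black), *Twist1*-high cells without *Foxc1* (green) and *Foxc1*-high cells without *Twist1* (orange) for 25 genes, with bars for the SE and filled points for an adjusted p under 0.05. *Cxcl12* and *Sox9* stand furthest to the right in the first and second comparison, at 1.37 and 1.26 and at 2.07 and 1.67.

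Markers of other cell types were followed through whole lists. Summed over a list, the 11 endothelial markers other than *Cdh5* made up 5.24 to 9.34 per 1000 counts of Foxc1+ cells and 5.71 to 8.13 of other cells. The 7 leukocyte and macrophage markers made up 2.67 to 5.92 against 3.20 to 5.29, and the 6 neural markers 1.41 to 4.09 against 2.32 to 4.68. The 6 smooth muscle markers other than *Tagln* and *Acta2* made up 12.2 to 20.6 against 13.1 to 20.2, and of these *Tpm1*, a tropomyosin, was lower in Foxc1+ cells by a log2 fold change of -0.22 (edgeR adjusted p = 0.0270). The 5 epithelial markers made up 1.99 to 6.17 against 3.32 to 5.88, the 4 neural crest markers 2.25 to 8.13 against 2.52 to 5.10, and the 3 cardiac markers 0.490 to 2.96 against 1.11 to 1.89. No marker of these lists was at 0 over all Foxc1+ cells, and the lowest was *Epcam* at 0.255 per 1000. The 3 erythroid markers stood apart, at 2.74 to 21.5 per 1000 in Foxc1+ cells and 11.5 to 66.8 in other cells, lower in Foxc1+ cells in all 21 sections. The part of erythroid transcripts in the other differences was not tested.

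With a stricter *Foxc1* limit of 5, 19 genes were called, all of them among the 36. Within the wildtype sections alone 9 genes were called, 7 of them among the 36, and there *Cxcl12*, *Sox9* and *Cdh11* had log2 fold changes of 1.23, 0.93 and 0.80, while *Foxc2* at 0.74 (edgeR adjusted p = 0.0560), *Pax1* at 0.39 (adjusted p = 0.677), *Hba-a1/2* at -1.19 (adjusted p = 0.184) and *Krt8* at -0.07 (adjusted p = 0.974) did not pass.

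RefSeq promoter sequence was at hand for 11 of the 20 genes that rose. It is shown for *Cxcl12*, the largest rise, for *Pax1*, the sclerotome marker, and for *Col3a1*, which was the 1 gene of the 11 with matches to both motifs searched. Each sequence is the 250 bases before the annotated start, on GRCm38.p6 and on the plus strand, at chr6:117168285-117168534, chr2:147364744-147364993 and chr1:45311288-45311537. Capitals mark matches on either strand to TAAACA, a core letter string of forkhead factors, and CATNTG, an E-box form bound by Twist factors.

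Cxcl12: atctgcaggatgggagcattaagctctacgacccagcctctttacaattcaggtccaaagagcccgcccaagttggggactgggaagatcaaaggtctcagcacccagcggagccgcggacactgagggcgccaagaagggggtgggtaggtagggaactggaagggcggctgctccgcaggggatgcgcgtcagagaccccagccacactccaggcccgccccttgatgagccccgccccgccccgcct
Pax1: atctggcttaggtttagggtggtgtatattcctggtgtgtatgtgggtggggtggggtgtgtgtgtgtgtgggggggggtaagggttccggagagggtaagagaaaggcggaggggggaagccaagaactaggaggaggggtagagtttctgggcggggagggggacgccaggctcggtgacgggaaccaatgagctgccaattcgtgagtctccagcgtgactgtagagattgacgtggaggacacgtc
Col3a1: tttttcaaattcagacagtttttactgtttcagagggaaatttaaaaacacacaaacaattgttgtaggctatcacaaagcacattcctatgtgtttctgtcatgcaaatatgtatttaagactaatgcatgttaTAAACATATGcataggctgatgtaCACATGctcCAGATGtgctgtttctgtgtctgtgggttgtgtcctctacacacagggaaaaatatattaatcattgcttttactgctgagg

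In *Col3a1* the match to TAAACA shares its last letters with a match to CATNTG, and 2 more matches to CATNTG follow. Neither string occurs in the windows of *Cxcl12* and *Pax1*. TAAACA was found for 1 of the 11 genes that rose and for 10.2% of the 714 tested genes with an entry, and CATNTG for 2 of the 11 and for 34.5% of the 714. A match describes letters and is not a binding site.

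The second comparison took cells with much *Twist1* and no *Foxc1*. It set Foxc1+ cells against 3363 cells with a *Twist1* count of 3 or more, at least 6 per 1000, and no *Foxc1* transcript. The median *Twist1* count was 4.0 in those cells and 3.0 in Foxc1+ cells, so *Twist1* was not matched. *Cxcl12*, *Sox9*, *Foxc2* and *Pax1* were again higher in Foxc1+ cells, and *Igfbp5*, *Epha3*, *Col1a1* and 5 of 20 cell cycle genes were lower. Of 985 genes 19 (1.93%) were higher and 34 (3.45%) lower (edgeR, section as a block), together 5.38%. *Cxcl12* ranged from 0.388 through 0.736 to 4.40 per 1000 counts in the *Twist1*-high cells, below Foxc1+ cells in each of 21 sections (log2 fold change 2.07, SE 0.14, edgeR adjusted p = 7.29e-13). *Sox9* ranged from 0.528 through 1.00 to 3.02 per 1000 in those cells and was also below Foxc1+ cells in each section (log2 fold change 1.67, SE 0.10, edgeR adjusted p = 8.14e-47). *Foxc2* had a log2 fold change of 1.35, *Pax1* and *Fzd8* one of 0.73 and 0.71, and *Cdh11*, *Sox2* and *Fzd1* one of 0.69, 0.69 and 0.61.

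Neural crest markers were also examined in this comparison. *Sox10*, a factor of neural crest and glia, ranged from 0.380 through 0.941 to 2.82 per 1000 counts in Foxc1+ cells and from 0.240 through 0.536 to 1.73 in *Twist1*-high cells (log2 fold change 0.72, edgeR adjusted p = 3.12e-05), higher in 15 of 21 sections. *Ngfr*, a neurotrophin receptor, and *Erbb3*, a receptor of neuregulins, had 0.29 and 0.13 and did not pass. Against all other cells *Sox10* did not pass (log2 fold change 0.22, edgeR adjusted p = 0.531).

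*Epha3*, a further Eph receptor, was lower in 18 of 21 sections, at 0 to 1.73 per 1000 counts with a median of 0.810 in Foxc1+ cells and 0.761 to 2.69 with a median of 1.35 in *Twist1*-high cells (log2 fold change -0.91, SE 0.13, edgeR adjusted p = 3.07e-10). *Igfbp5* had a log2 fold change of -0.99, *Pdgfc*, a ligand of PDGF receptors, -0.76, *Col18a1* -0.66, *Lgals1*, a galectin, -0.60 and *Nfatc4*, a calcium-dependent factor, -0.51. Of 37 matrix genes 3 fell, *Col1a1*, a chain of type I collagen, at -0.76, *Col18a1*, and *Fn1*, which encodes fibronectin, at -0.38. Another 3 rose, *Col9a3*, a collagen of cartilage, at 0.50, *Vcan* at 0.47 and *Col3a1* at 0.41. Of the Eph receptors and ephrins *Epha7* rose by 0.64, and *Ephb4* fell by 0.42 beside *Epha3*. Of 20 genes of the cell cycle list 5 fell and none rose, with a median log2 fold change of -0.17 over the list against -0.00 over all genes. They were *Tubb5* at -0.54, *Stmn1* at -0.47, *Hmgb2* at -0.38, *Ube2c* at -0.37 and *Top2a* at -0.35, and of these *Tubb5* and *Stmn1* encode parts or partners of microtubules that are not confined to dividing cells. *Wnt5a* and *Ror1*, a ligand and its receptor, had -0.51 and -0.44, *Bmp4* had -0.54 and *Fgfr2* -0.45, each past the threshold. *Fzd4*, *Fzd1* and *Fzd8* were the hedgehog and Wnt genes that rose. With scaling by library size alone the split of 50 calls was 24 higher and 26 lower.

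The third comparison held *Foxc1* high on both sides. It used 231 cells that met the limits on *Foxc1* but had no *Twist1* transcript, in the 13 sections with at least 10 such cells. *Cdh11* and *Sox9* were higher in Foxc1+ cells, and *Tpm1*, *Tpm2* and *Igfbp5* were lower. These 5 calls are 0.839% of 596 genes tested, 0.336% higher and 0.503% lower, and 6.38% had an unadjusted p under 0.05 (edgeR, section as a block). *Cdh11* ranged from 0.755 through 1.68 to 2.20 per 1000 counts in Foxc1+ cells and from 0 through 0.485 to 1.37 in cells without *Twist1*, higher in 12 of 13 sections (log2 fold change 1.33, SE 0.27, edgeR adjusted p = 0.000337). *Sox9* ranged from 1.67 through 3.25 to 5.42 and from 0.740 through 1.86 to 3.71 per 1000, higher in 10 of 13 sections (log2 fold change 0.69, SE 0.18, edgeR adjusted p = 0.0137). *Tpm1* ranged from 4.17 through 5.96 to 9.41 per 1000 in Foxc1+ cells and from 6.03 through 10.8 to 15.3 in cells without *Twist1*, lower in 12 of 13 sections (log2 fold change -0.61, SE 0.13, edgeR adjusted p = 0.00172). *Tpm2*, another tropomyosin, had a log2 fold change of -0.70 and was lower in 10 of 13 sections. *Foxc2* at 0.11, *Pax1* at 0.57 and *Cxcl12* at 0.45 did not pass. Within the knockout sections alone *Cdh11* had 1.32 and did not pass (edgeR adjusted p = 0.100), and within the wildtype sections alone no gene passed and *Sox9* had a log2 fold change of -0.16 (edgeR adjusted p = 0.981).

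*Pax1* or *Pax9* transcripts were found in 365 Foxc1+ cells and neither was found in the other 452, or 55.3%. The share with either gene was 43.8% ± 10.4 of the Foxc1+ cells of a section (SD, n = 21), 31.3% ± 9.9 of other cells matched on total count and 29.1% ± 4.5 of *Twist1*-high cells without *Foxc1*. Foxc1+ cells had the higher share in 15 sections and the lower in 3, and 3 were equal, with a mean difference of 12.6 percentage points (two-sided exact sign-flip permutation test over 21 sections, p = 0.000374). Matched cells have equal counts and so give the background of this share.

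Foxc1+ cells with *Pax1* or *Pax9* were then compared with Foxc1+ cells without, in 14 sections with at least 10 cells on each side. The split rests on counting at least 1 transcript and goes with depth. The median total of a section had a median of 416.25 in cells with Pax and 340.5 in cells without, over all sections. After thinning to 100 counts the share with Pax averaged 13.7% in knockout and 13.8% in wildtype sections. A cell without Pax may thus hold transcripts that were not counted. No gene was higher in the cells with Pax, and 6 were lower, 0.952% of the 630 genes tested (edgeR, section as a block). At an unadjusted p under 0.05 there were 46 genes (7.3%), and no gene was higher by DESeq2 either. *Tpm1* ranged from 3.13 through 4.35 to 7.53 per 1000 counts in cells with Pax and from 4.71 through 6.35 to 10.1 in cells without, lower in each of 14 sections (log2 fold change -0.57, SE 0.11, edgeR adjusted p = 0.000202). *Tpm2* had a log2 fold change of -0.74 and *Sparc*, a matrix protein that binds collagen, one of -0.69, each lower in 12 of 14 sections. *Cald1*, which binds actin and tropomyosin, had -0.43, *Igf2*, a growth factor of the embryo, -0.35 and *Ezr* -0.84, each lower in 11 of 14 sections. Of 5 smooth muscle markers tested 3 were thus lower, which are also known in other cells with contractile fibres. *Sox9* had a log2 fold change of 0.01 (SE 0.13, edgeR adjusted p = 0.989) and *Foxc2* of 0.14 (SE 0.20, edgeR adjusted p = 0.935), and *Cxcl12* had one of -0.22 (SE 0.12, edgeR adjusted p = 0.775). By DESeq2 and on cells matched on total count 2 genes were lower, each time 2 of the 6. In the knockout sections alone 2 genes were lower, and 1 of them was among the 6. With a *Foxc1* limit of 5 no gene of 154 tested was called, so none of the 6 calls held in every setting.

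Foxc1+ cells lay unevenly within sections. Cells are grouped in the tables by 50 fields of view, of which 3 held no Foxc1+ cell, and the share in a field had a median of 1.91% and reached 9.07%. Of the 18 sections with several fields 11 had a share in the highest field more than 2 times that in the lowest. In knockout section 10 one field held 7.86% and the other 1.29%. In knockout section 9 the field with 20.3% of the cells held 63.5% of the Foxc1+ cells. In knockout section 6 all 48 Foxc1+ cells lay in 1 of 2 fields. The position of cells within a field was not used.

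**Figure D3:**
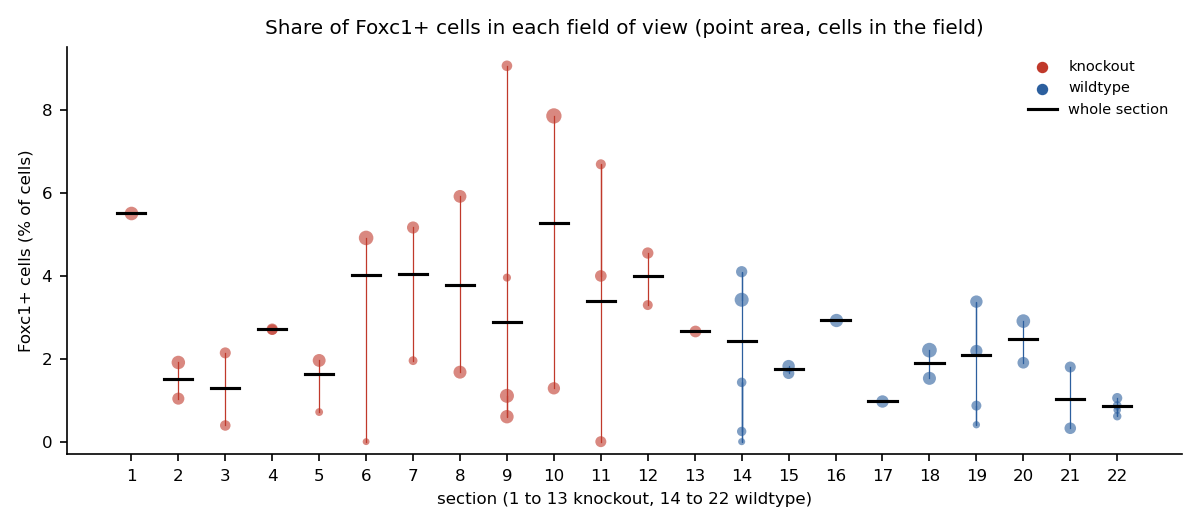
Share of Foxc1+ cells among cells with a total of 50 or more in each field of view (points, area by number of cells) and in the whole section (black bar), for sections 1 to 13 of the knockout and 14 to 22 of the wildtype embryo. The fields of section 9 spread from 0.602% to 9.07%, and 3 fields lie at 0.

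The share of Foxc1+ cells in a section was compared between the embryos. It ranged from 1.31% through a median of 3.40% to 5.52% in 13 knockout sections and from 0.853% through 1.91% to 2.93% in 9 wildtype sections. The mean was 3.29% ± 1.34 (SD, n = 13) against 1.83% ± 0.74 (SD, n = 9), a difference of 1.46 percentage points (two-sided exact permutation test over 497420 splits, p = 0.00809). The ranges overlapped, with knockout sections 2, 3 and 5 at 1.52%, 1.31% and 1.63%. The difference was 0.94 points without the limit on *Twist1* (exact permutation p = 0.151). It was 0.94 points within the sections numbered 1 (exact permutation p = 0.312) against 2.00 within those numbered 2 (exact permutation p = 0.00433). With each cell thinned to 100 counts far fewer cells of both embryos met the limits. The mean shares were then 0.304% in knockout and 0.147% in wildtype sections, a difference of 0.16 points (exact permutation p = 0.113). Where along the body each section lay is not in the tables, and its part in the difference was not tested.

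The share of Foxc1+ cells with *Pax1* or *Pax9* was 43.8% ± 11.8 in 13 knockout sections and 43.8% ± 8.4 in 8 wildtype sections. The difference of 0.010 percentage points was below the SD of either group (exact permutation test, two-sided, p = 0.998).

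**Figure D4:**
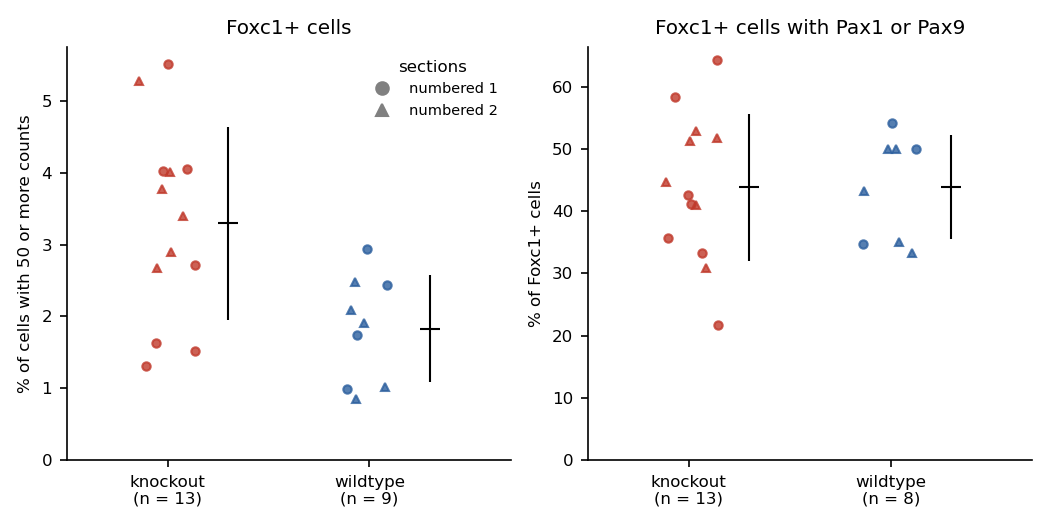
Share of Foxc1+ cells among cells with 50 or more counts (left) and of *Pax1* or *Pax9* among Foxc1+ cells (right), in percent, with 1 point for each section, its shape giving the section's number and the black bar the mean and SD. Knockout sections average 3.29% and wildtype sections 1.83% on the left, and both 43.8% on the right.

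Last, Foxc1+ cells of the knockout embryo were compared with those of the wildtype embryo across genes. *Sox9* and *Cxcl12* were higher in the knockout, together with abundant genes such as *Eno1/b* and *Hsp90ab1* and with 7 of 19 cell cycle genes, and *Ier3*, *Ifnl2/3* and *Col1a1* were lower. Of 630 genes 33 (5.24%) were higher and 3 (0.476%) lower (edgeR), together 5.71%, around a median log2 fold change of -0.08. With scaling by library size alone 25 were higher and 18 lower around a median of -0.26, so the split between directions rests on the scaling. Between the embryos' other cells 90 of 993 genes tested were called, against 36 of 630 in Foxc1+ cells. The sums held 24478 other cells and 810 Foxc1+ cells, so the 2 counts differ in depth and in the genes tested. Of the 36 genes 31 were called in other cells too, in the same direction.

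*Sox9* ranged from 3.18 through 4.53 to 5.50 per 1000 counts in knockout and from 0.740 through 2.12 to 3.11 in wildtype sections, and the embryos did not overlap (log2 fold change 1.23, SE 0.18, edgeR adjusted p = 6.70e-09). In other cells its log2 fold change was 0.89 (SE 0.22, edgeR adjusted p = 0.00973). The test of the difference between these changes gave 0.46 (SE 0.17, edgeR adjusted p = 0.548). *Cxcl12* ranged from 3.31 through 4.87 to 9.10 per 1000 in knockout and from 1.95 through 2.54 to 4.80 in wildtype sections, which overlapped (log2 fold change 0.95, SE 0.18, edgeR adjusted p = 8.38e-06), and it had 0.88 (SE 0.23, edgeR adjusted p = 0.0136) in other cells. Within the sections numbered 1 alone *Cxcl12* had 0.52 and did not pass (edgeR adjusted p = 0.144), and *Sox9* had 0.96 (adjusted p = 0.00463). Both genes were thus also higher in knockout sections outside the Foxc1+ cells.

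*Foxc2* ranged from 0.245 through 1.24 to 1.73 per 1000 counts in knockout and from 0.247 through 0.849 to 1.06 in wildtype sections (log2 fold change 0.74, SE 0.23, edgeR adjusted p = 0.0313). It did not pass in other cells (0.35, edgeR adjusted p = 0.145) or with the slide as a random block (adjusted p = 0.0811), and its call was lost when any 1 of 9 sections was left out. *Pax1* had a log2 fold change of 0.50 (SE 0.23, edgeR adjusted p = 0.269) and *Pax9* of -0.10 (SE 0.28, edgeR adjusted p = 0.900).

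The largest rises were of abundant genes. *Eno1/b*, a glycolytic enzyme, ranged from 13.0 through 15.8 to 21.8 per 1000 counts in knockout and from 6.17 through 7.41 to 9.99 in wildtype sections (log2 fold change 1.31, SE 0.14, edgeR adjusted p = 4.33e-16), and had 1.27 in other cells. *Hsp90ab1*, a chaperone, ranged from 23.5 through 27.5 to 38.5 and from 10.6 through 13.4 to 15.01 per 1000 (log2 fold change 1.25, SE 0.12, edgeR adjusted p = 8.06e-18), and had 1.21 in other cells. *Btf3* and *Eif5a*, which act in protein synthesis, and *Fau*, part of the ribosome, had 1.27, 1.13 and 1.15, and *Ybx3*, an RNA-binding protein, *Tubb5* and *Tpt1* had 1.23, 1.17 and 0.97. In other cells these 6 genes had 1.05, 0.97, 0.98, 0.90, 0.93 and 0.76, each past the threshold there too. Of 19 cell cycle genes tested 7 were higher and none lower, with a median log2 fold change of 0.34, and they included *Hmgb2* at 0.91, *Ube2c* at 0.88, *Pcna* at 0.69 and *Top2a* at 0.56. The embryos did not overlap for 9 of the 630 genes tested, all of them called, which were *Sox9*, *Eno1/b*, *Btf3*, *Hsp90ab1*, *Tubb5*, *Tpt1*, *Hmgb2*, *Ppia* and *Ier3*.

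The 3 genes that were lower did not pass in other cells. *Ier3*, an early response gene, ranged from 0 through 0.394 to 0.603 per 1000 counts in knockout and from 0.730 through 0.818 to 2.22 in wildtype sections (log2 fold change -1.06, SE 0.29, edgeR adjusted p = 0.00607), and had -0.21 in other cells. *Ifnl2/3*, a feature for type III interferons, had -0.87 in Foxc1+ cells and -0.23 in other cells. *Col1a1* ranged from 1.21 through 2.13 to 3.83 per 1000 in knockout and from 2.90 through 4.38 to 6.25 in wildtype sections (log2 fold change -0.56, SE 0.17, edgeR adjusted p = 0.0280), and had 0.15 (SE 0.39) in other cells. The test of the difference did not pass for any of the 3, at adjusted p = 0.422, 0.657 and 0.633 (edgeR). The call of *Col1a1* was lost when any 1 of 7 sections was left out.

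**Figure D5:**
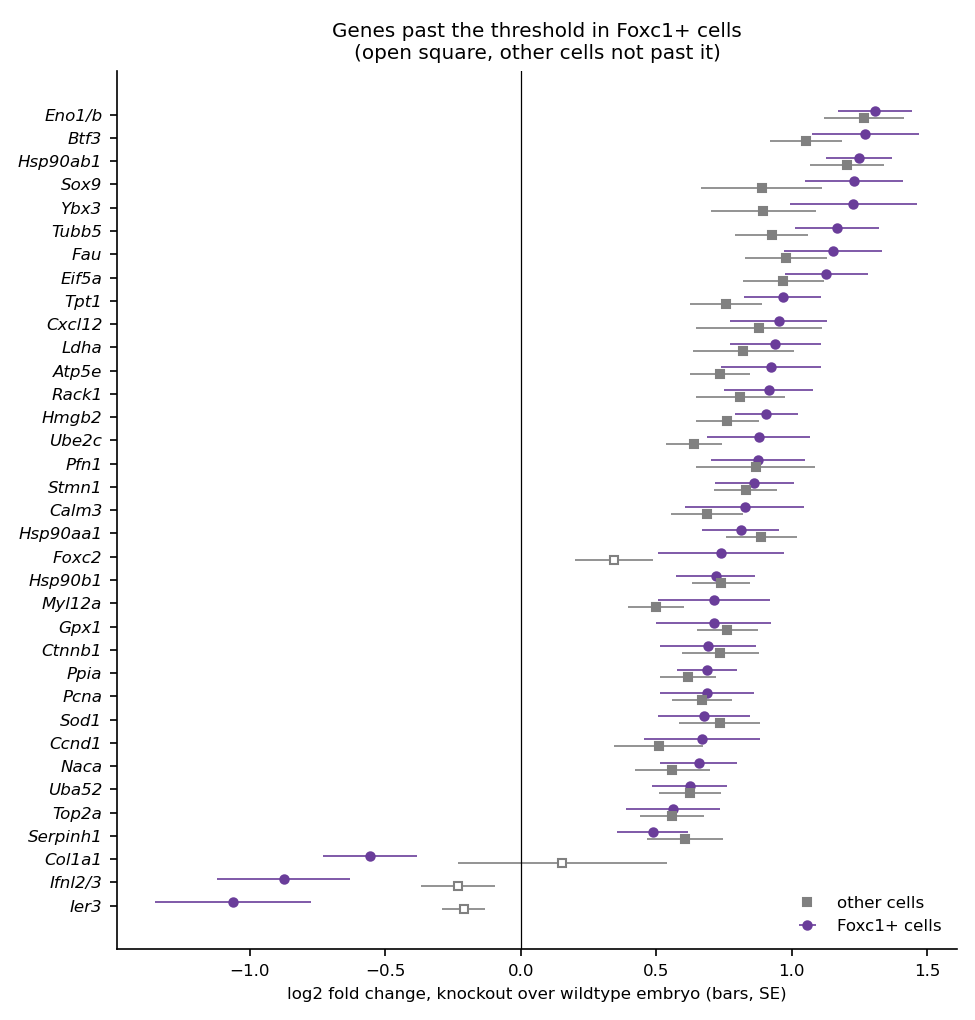
Log2 fold change of the knockout over the wildtype embryo with its SE for genes called in Foxc1+ cells (purple) and the same genes in other cells of the same sections (grey squares, open where not past the threshold). Among the genes shown the squares are filled for 31 and open for *Foxc2*, *Col1a1*, *Ifnl2/3* and *Ier3*.

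Across 993 genes 1 passed the test of a difference between the embryos in the change from other cells to Foxc1+ cells, 0.101% of those tested, and 64 (6.45%) had an unadjusted p under 0.05. This was *Krt8*, at -0.97 on the log2 scale (SE 0.22, edgeR adjusted p = 0.0226). In Foxc1+ cells it ranged from 0.245 through 0.615 to 1.73 per 1000 counts in knockout and from 0.967 through 1.21 to 1.75 in wildtype sections. Leaving out section 6, 9 or 11 of the knockout or section 19 or 20 of the wildtype embryo ended the call. Beside it, the 5 epithelial markers together made up 1.99 to 3.92 per 1000 of Foxc1+ cells in knockout and 3.11 to 6.17 in wildtype sections, and the 11 endothelial markers 5.24 to 7.45 against 6.71 to 9.34. The erythroid markers made up 2.74 to 8.54 against 4.70 to 21.5. The mean was also lower in the knockout for the leukocyte list, at 3.69 against 4.86, the neural list, at 2.67 against 3.32, the cardiac list, at 1.27 against 1.67, and the neural crest list, at 3.42 against 3.89, while the smooth muscle list was at 16.3 against 16.2. Levels per 1000 counts are scaled by library size alone. So scaled, the median log2 fold change over all 630 genes tested in Foxc1+ cells was also below 0, at -0.26. The means of the lists were not tested, and the part of these transcripts in the differences between the embryos was not tested.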

How the data were processed

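Sections of mouse embryos were fixed, hybridized with probes, imaged and segmented by the authors, who assigned transcripts to cells in the AtoMx software. The values deposited by the authors are raw counts of transcripts per gene and segmented cell, without normalization, and no genome build or aligner is involved. The authors' later analysis in Seurat was not used here. Some sources describe paraffin and others fresh frozen tissue, and the labels were followed for the genotype of each section. No column lacked a sample.

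Cells were selected by the limits given above, and counts were summed per section over at least 10 cells a side. The sums were tested in R 4.3.3 by edgeR 4.0.16, with limma 3.58.1 for the random block (TMM factors, filterByExpr, robust quasi-likelihood fit, Benjamini-Hochberg adjustment, threshold 0.05), with the section as a block within sections. The 5 genes of the limits were left out before adjustment, and *Pax1* and *Pax9* where they split the cells. Levels are counts per 1000 counts of the summed cells. Shares of sections were compared by exact permutation over all splits (Python 3.11.15, numpy 2.4.6, scipy 1.17.1). The comparison of the *Pax1* or *Pax9* share with matched cells was chosen after seeing the data. On simulated counts of 998 genes with 200 changed by 1 on the log2 scale, edgeR recovered 99.5% in the comparison with other cells, with 3.86% false calls. For the comparison between embryos it recovered 69.5% on 634 genes, with 3.47% false calls. The simulated counts had 1 fixed dispersion, no effect of section, slide or embryo, and as many genes raised as lowered. These rates therefore do not give the error of a comparison between 2 single embryos.

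Members and gene lists were chosen with earlier results of these data known. Genes were named by rule: NR4A receptors and sclerotome genes; in the comparison with other cells the 12 largest rises and 8 largest falls with the same direction in at least 4 in 5 sections, 8 each way in the others and 10 between the embryos; and up to 4 genes of each gene list with the lowest adjusted p. Genes named to complete a count of 5 or fewer were chosen after their values were seen. Some genes are not reported here. Alternatives were library size scaling, DESeq2 1.42.0, no filter, matched total counts, single embryos, other limits, slide terms, thinning and leaving out sections.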

Additional observations from a re-analysis of the deposited data

Results flagged for a closer look

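In 8 wildtype sections a single section stood apart from the others for 7 of 42 measures examined, where chance alone sets apart about 1 in 20 groups. In Foxc1+ cells of section 21, which held 12 such cells, *Ier3* was at 2.22 per 1000 counts against 0.730 to 0.870 in the others, *Pax1* at 1.97 against 0.773 to 1.20, *Btf3* at 0 against 1.15 to 1.85 and *Hsp90ab1* at 10.6 against 13.2 to 15.01. In section 22, also with 12 such cells, *Fzd8* was at 1.75 against 0.706 to 1.05 and *Ifnl2/3* at 0.195 against 1.09 to 1.49. In section 20 *Ezr* was at 1.79 against 0.390 to 0.986. *Krt8* differed between the embryos in its change from other cells to Foxc1+ cells, by -0.97 on the log2 scale (edgeR, test of the difference itself).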

How the results depend on the processing

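The count of 36 genes called against other cells was 19 with a *Foxc1* limit of 5 and 9 in wildtype sections alone, and 29 to 40 when a section was left out. Against *Twist1*-high cells it went from 53 to 24 with the *Foxc1* limit of 5, and to 32 in knockout and 35 in wildtype sections alone. Against *Foxc1*-high cells without *Twist1* the 5 calls of 596 genes tested became 3 of 596 by DESeq2 and 3 of 993 with no filter. They became 3 of 119 in knockout sections alone, 2 of 154 with matched totals and 0 of 545 in wildtype sections alone. A *Foxc1* limit of 5 could not be fitted there. Between cells with and without Pax the 6 calls of 630 genes tested became 2 of 630 by DESeq2 and 2 of 501 with matched totals. They became 2 of 570 in knockout and 3 of 433 in wildtype sections alone, and 0 of 154 with the *Foxc1* limit of 5. Between the embryos the 36 calls of 630 genes tested became 19 of 193 with that limit and 13 of 46 with cells thinned to 100 counts. They became 23 of 255 in the sections numbered 1 and 90 of 993 in other cells in place of Foxc1+ cells. Leaving out a section gave 30 to 39 calls. Because the number tested differs between these settings, the counts alone do not compare them. The test of the difference between the embryos called 2 genes by DESeq2 and 0 to 2 when a section was left out.

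Directions turned for *Col4a1* against all other cells (-0.28), *Sox2* against matched cells (0.046), *Krt8* against *Twist1*-high cells in wildtype sections (0.0024), *Sox9* against cells without *Twist1* in wildtype sections (-0.16) and *Serpinh1* between the embryos after thinning (-0.10), all log2 fold changes. The difference in the share of Foxc1+ cells, 1.46 points, was 0.944 without the limit on *Twist1* and 0.941 in the sections numbered 1. It was 1.28 to 1.63 when a section was left out. After thinning it was 0.156, between mean shares of 0.304% in knockout and 0.147% in wildtype sections. The difference in the Pax share was -0.136 after thinning, -3.87 in the sections numbered 1 and -1.69 to 1.85 when a section was left out. The cause of these changes was not tested. In the comparisons with *Twist1*-high cells and with cells without *Twist1* only knockout section 3 was left out, which gave 51 and 5 calls. These, the sections left out against other cells and in the test of the difference, the share without the limit on *Twist1* and the count in other cells were chosen after seeing the data. No paired analysis was possible because the replicate numbers of the sections only follow the order of the samples, so that no knockout section belongs to a wildtype section. Sections 21 and 22 hold 12 Foxc1+ cells each, which limits the depth behind their levels.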
